A study of Mus musculus with 15 samples.

Results

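The vascular endothelial growth factor (VEGF) family was followed in brain microvessels through 9 genes: the ligand genes Vegfa, Vegfb, Vegfc and Pgf, the receptor genes Flt1, Kdr and Flt4, and the neuropilin genes Nrp1 and Nrp2. They were chosen by symbol, as 9 of the 27174 genes in the deposited table, and all 9 passed the filter on low values. All mice were adult WT BL6/57. Microvessels came from the tumour region of mice with a glioblastoma transplanted into the brain, from the opposite hemisphere, or from sham-operated animals without a tumour. In the triple therapy group, tumour-bearing mice received aflibercept, AMG386 and anti-PD1. The dual therapy group received aflibercept and AMG386. The untreated tumour group received control IgG, and the contralateral group is the hemisphere without tumour of mice given the same IgG. The sham group was healthy, and its labels name no antibody. The 5 groups hold 3 libraries each, each a pool of 3 mice, taken 21 days after transplantation for the tumour mice. The tumour cell line, sex and doses are not given in the sources used here, and opposite hemispheres of treated mice were not analysed here. Since a library is a pool, p-values measure the spread between pools and not between single mice.

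VEGF-A is secreted by many cell types, often under low oxygen, and makes endothelial cells divide, migrate and loosen their junctions through the receptor kinase VEGFR2, the product of Kdr. VEGFR1, the product of Flt1, binds VEGF-A more tightly but signals weakly, and its membrane-bound and soluble forms can hold VEGF-A away from VEGFR2. VEGF-B and placental growth factor, the product of Pgf, bind VEGFR1, while VEGF-C binds VEGFR3, the product of Flt4, and in its processed form also VEGFR2. Neuropilins are co-receptors shared by VEGF and class 3 semaphorins. Aflibercept joins ligand-binding parts of VEGFR1 and VEGFR2 to an antibody tail and traps VEGF-A, VEGF-B and placental growth factor, AMG386 binds angiopoietins, and anti-PD1 blocks an inhibitory receptor of T cells.

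The values are the authors' normalised scores, whole numbers scaled library by library, and not read counts. Total scores ran from 11134670 to 15799111 per library, and estimated depth from 6365348 to 18318084 reads. Endothelial markers were abundant in every library and none of the 14 was at 0, but their summed score was 98421 to 119782 under triple therapy, 104739 to 118842 under dual therapy, 72008 to 101823 in untreated tumour, 116259 to 132984 in contralateral tissue and 111473 to 119163 in sham. Marker genes of pericytes, astrocytes, neurons and choroid plexus were also present, so the RNA is not from endothelium alone. Untreated replicate 2 and dual replicate 2 stood apart from the other libraries of their groups on a principal component. In bulk RNA, fewer cells of a type and less RNA per cell cannot be told apart.

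Kdr and Flt1, whose ratio is described below, lie on the same chromosome and are both minus-strand genes. The 250 bases before the RefSeq start (GRCm38.p6, minus strand) are shown for them, at chr5:75978456-75978705 for Kdr and chr5:147726012-147726261 for Flt1, with capitals on GGAA and its reverse complement, the core that ETS factors of endothelium bind. Vegfa, the ligand gene that rose in untreated tumour, is shown at chr17:46032378-46032627, with capitals on the GC box GGGCGG and its reverse complement.
Kdr: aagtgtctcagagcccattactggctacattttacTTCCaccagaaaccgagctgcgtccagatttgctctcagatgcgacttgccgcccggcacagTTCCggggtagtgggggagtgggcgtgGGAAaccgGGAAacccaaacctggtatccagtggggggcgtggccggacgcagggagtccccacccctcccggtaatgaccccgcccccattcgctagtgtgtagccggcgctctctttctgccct
Flt1: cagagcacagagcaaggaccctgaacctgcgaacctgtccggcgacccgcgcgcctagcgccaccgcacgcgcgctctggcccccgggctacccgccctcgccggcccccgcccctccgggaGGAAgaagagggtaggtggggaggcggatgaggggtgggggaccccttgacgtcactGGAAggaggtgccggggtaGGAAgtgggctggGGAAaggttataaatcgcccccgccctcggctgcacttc
Vegfa: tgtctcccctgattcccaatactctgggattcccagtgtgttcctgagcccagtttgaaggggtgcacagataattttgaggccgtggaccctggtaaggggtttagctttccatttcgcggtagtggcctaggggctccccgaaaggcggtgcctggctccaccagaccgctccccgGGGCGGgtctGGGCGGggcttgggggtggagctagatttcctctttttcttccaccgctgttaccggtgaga
Kdr and Flt1 hold 4 GGAA cores each, searched on both strands, but 93.4% of 32851 promoter windows of this length hold at least 1. Flt1 also holds 1 cyclic AMP response element, TGACGTCA, which starts 81 bases before the gene and is in 1.5% of windows. Vegfa holds 2 GC boxes (in 32.7% of windows), and the core of the hypoxia response element, ACGTG, is in 16.6% of windows and in none of the 9 windows of these genes. Matches of different motifs may overlap, and a match of letters is not evidence of a bound factor.

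Per kilobase of exon, Flt1 was the most abundant of the 9 genes in every group and ranked 37 to 65 among 19634 genes. Its length-scaled level was 3459 ± 476 under triple therapy, 3818 ± 627 under dual therapy, 2555 ± 689 in untreated tumour, 4415 ± 725 in contralateral tissue and 3876 ± 145 in sham (SD, n = 3 each). Kdr came next, at 600.2 ± 114 to 894.7 ± 160 per kilobase, followed by Nrp1 at 338.7 ± 40.7 to 444.3 ± 34.7. Vegfa was the scarcest in all 5 groups, at 110.9 ± 27.2 per kilobase in untreated tumour and 57.1 ± 7.4 to 65.03 ± 11.1 in the other 4. The 5 other genes lay between 106.3 and 271.4 per kilobase. Flt4, the VEGFR3 gene, lay below its ligand gene Vegfc per kilobase under dual therapy (180.2 against 224.3), in contralateral tissue (212.7 against 249.4) and in sham (166.2 against 271.4).

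**Figure D1:**
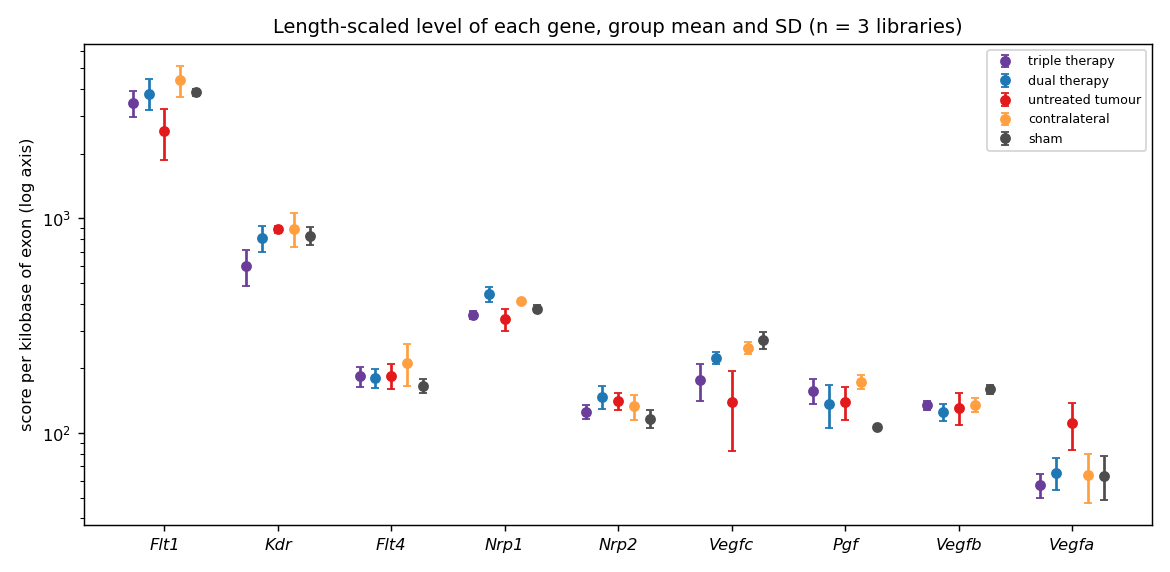
Length-scaled level (score per kilobase of exon, log axis) of each gene, as group mean and SD of 3 libraries, in the order triple therapy, dual therapy, untreated tumour, contralateral and sham. Flt1 lies above every other gene in all groups, and Vegfa lies lowest in each group, with its highest level, 110.9 per kilobase, in untreated tumour.

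Across the 5 groups, 6 of the 9 genes differed in the limma F-test (Vegfa, Vegfc, Pgf, Kdr, Flt1 and Nrp1), where 43.5% of all tested genes did. Vegfb, Flt4 and Nrp2 did not pass (adjusted p = 0.272, 0.348 and 0.153). Comparisons with untreated tumour share its 3 libraries and are not independent of each other. In untreated tumour, 1 member rose and 3 fell against contralateral tissue, where 42.5% of genes were called (21.1% higher and 21.4% lower). Against sham, 1 rose and 2 fell, where 46.6% were called (23.3% in either direction alone). Under dual therapy 3 rose and 1 fell against untreated tumour, where 22.3% of genes were called (12.1% higher and 10.2% lower), and under triple therapy 2 fell, where 32.2% were called (17.2% higher and 15% lower). Between triple and dual therapy no member was called by limma at an adjusted p below 0.05, where the share of all genes was 0.869% and 2850 genes had p below 0.05 before adjustment. Libraries of both groups were fully apart for 4 members in untreated tumour against contralateral tissue, where this held for 49.7% of all genes, and for 5 against sham (54.2%). They were apart for 4 members between dual therapy and untreated tumour (30.7% of genes), for 2 between triple therapy and untreated tumour (44%), and for 2 between triple and dual therapy (18.7%). Against contralateral tissue they were apart for 3 members under triple therapy (23.4%) and 0 under dual therapy (28.4%). Against sham they were apart for 4 members under triple therapy (30.5%), 3 under dual therapy (34%) and 3 in contralateral tissue (21%).

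**Figure D2:**
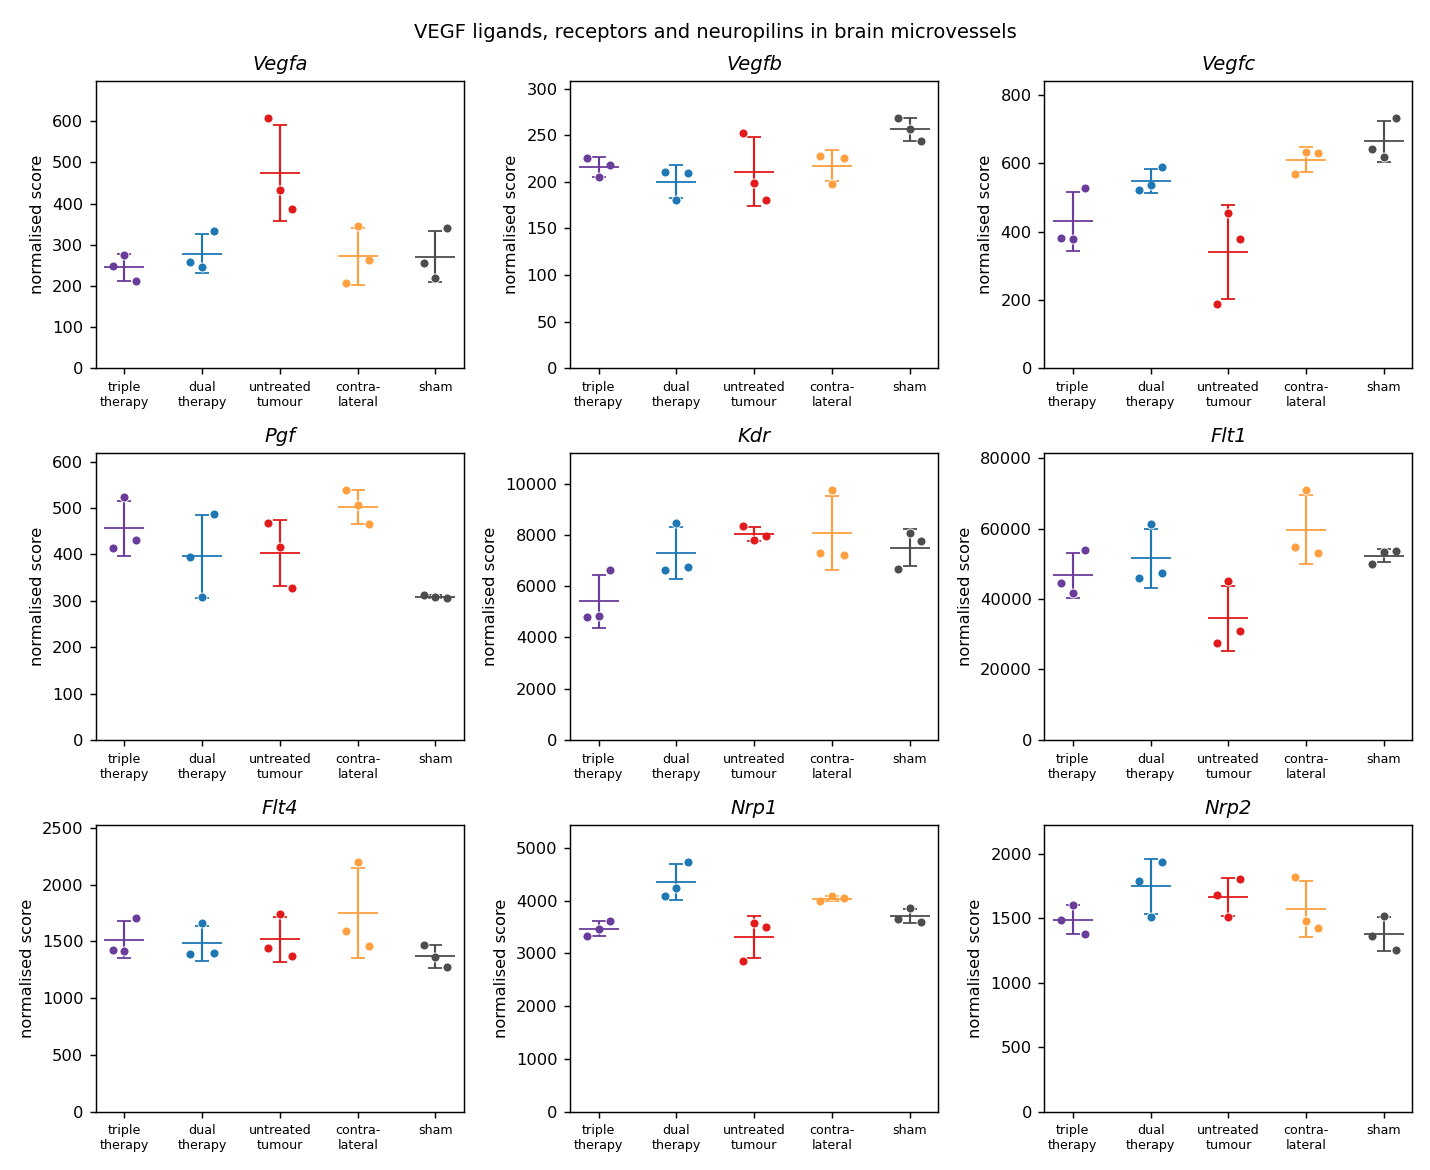
Deposited normalised score of each gene (vertical axis from 0) in each library, with the 5 groups along the horizontal axis; points are libraries, the long bar is the group mean and the whiskers the SD. The 3 untreated tumour libraries lie above all others for Vegfa (386 to 607) and below most others for Flt1, whereas triple therapy is lowest for Kdr (4817 to 6614).

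Among the ligands, Vegfa was higher in untreated tumour than in contralateral tissue and sham, and lower under both therapies than in untreated tumour. Vegfa (ENSMUSG00000023951, GRCm38 chromosome 17, 46016993 to 46032369, minus strand), the main angiogenic ligand, had scores of 249, 274 and 211 under triple therapy, 257, 246 and 333 under dual therapy, 607, 432 and 386 in untreated tumour, 206, 345 and 264 in contralateral tissue, and 255, 218 and 340 in sham. The 3 untreated libraries were the 3 highest of all 15, and the other 4 groups overlapped. Against contralateral tissue its log2 score rose by 0.81 ± 0.21 (SE of the limma fit, adjusted p = 0.00456), and against sham by 0.80 ± 0.21 (adjusted p = 0.00417). Under triple therapy it fell by 0.94 on the log2 scale against untreated tumour (SE 0.21, adjusted p = 0.00241), to a mean of 244.7 ± 31.7 under triple therapy against 475 ± 117 in untreated tumour. These 3 calls held in all 17 alternatives run for each. Under dual therapy it fell by 0.75 (SE 0.21, adjusted p = 0.0155), but this call was lost without untreated replicate 1 (adjusted p = 0.0914), without dual replicate 2 (0.0631) and without both outlying libraries (0.0589). Triple and dual therapy differed by -0.18 (95% interval -0.62 to 0.26, adjusted p = 0.745). Within a library, the ratio of Vegfa to Vegfb was 0.97 to 1.34 under triple therapy, 1.22 to 1.59 under dual therapy, 2.13 to 2.41 in untreated tumour, 0.90 to 1.74 in contralateral tissue and 0.85 to 1.39 in sham, and untreated tumour overlapped no other group.

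Vegfc moved the opposite way. Vegfc (ENSMUSG00000031520, chromosome 8, 54077606 to 54187096, plus strand), the lymphangiogenic ligand, had scores of 383, 379 and 529 under triple therapy, 521, 538 and 589 under dual therapy, 187, 455 and 378 in untreated tumour, 568, 634 and 630 in contralateral tissue, and 642, 620 and 732 in sham. Every untreated tumour library was below every dual, contralateral and sham library, but untreated tumour and triple therapy overlapped. Against contralateral tissue it fell by 0.94 on the log2 scale (SE 0.22, adjusted p = 0.00237), and against sham by 1.06 (SE 0.22, adjusted p = 0.000752). Both calls held in every alternative, but untreated replicate 1 set much of their size: without it the changes were -0.56 and -0.68 (adjusted p = 0.00693 and 0.00137). Under dual therapy Vegfc rose by 0.78 ± 0.22 against untreated tumour (adjusted p = 0.0171), which was 0.40 without untreated replicate 1 (adjusted p = 0.0778) and was not called without dual replicate 3 (0.0555) or with only these 2 groups in the fit (0.0791). This rise was also not called with no mean-variance trend in the fit (adjusted p = 0.0598). Under triple therapy the difference was 0.42 (95% interval -0.05 to 0.88, adjusted p = 0.165), but without untreated replicate 2 it passed (0.67, adjusted p = 0.0202). Its level under triple therapy was also below contralateral tissue and sham in every library, by 0.52 and 0.64 on the log2 scale, but neither passed (adjusted p = 0.254 and 0.0832). The first passed in 2 of 17 alternatives and the second in 5, and none of those left out a single library only.

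The VEGFR1 ligand genes did not follow Vegfa. Pgf (ENSMUSG00000004791, chromosome 12, 85166635 to 85177790, minus strand) had scores of 414, 524 and 430 under triple therapy, 395, 307 and 486 under dual therapy, 467, 415 and 327 in untreated tumour, 538, 506 and 465 in contralateral tissue, and 313, 307 and 306 in sham. The sham libraries were the tightest group and, apart from dual replicate 2, lay below every library from tumour-bearing mice. Under triple therapy Pgf rose by 0.55 ± 0.16 against sham (adjusted p = 0.0338), where 9.73% of genes were called. That call was lost without any 1 of the 6 libraries compared (adjusted p = 0.0501 to 0.166) and with endothelial scaling (0.57, adjusted p = 0.136). It was also lost with no mean-variance trend in the fit (adjusted p = 0.088). In contralateral tissue Pgf was higher than in sham in all libraries, by 0.70 ± 0.16 (adjusted p = 0.0663), a comparison in which 0.432% of genes were called, and its interval was 0.36 to 1.04. That difference passed when both outlying libraries were left out (adjusted p = 0.0261) and with library quality weights (0.69, adjusted p = 0.00902). Vegfb (chromosome 19, 6982473 to 6987651, minus strand) lay between 180 and 268 in all 15 libraries and was called in no comparison. It passed as lower in untreated tumour than in sham with library quality weights (-0.40, adjusted p = 0.0153) and without untreated replicate 1 (-0.43, adjusted p = 0.0259). It averaged 216.3 ± 10.6 under triple therapy, 200.3 ± 17.6 under dual therapy, 210.7 ± 36.9 in untreated tumour, 217.3 ± 16.8 in contralateral tissue and 256.3 ± 12 in sham.

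On the authors' scaling, the receptor genes Flt1 and Kdr changed in different groups. Flt1 (ENSMUSG00000029648, chromosome 5, 147561604 to 147726011, minus strand) had scores of 44534, 41668 and 53949 under triple therapy, 45903, 61296 and 47488 under dual therapy, 27435, 45050 and 31020 in untreated tumour, 54855, 70883 and 53134 in contralateral tissue, and 50085, 53406 and 53526 in sham. All 3 untreated libraries were below every dual, contralateral and sham library, whereas untreated replicate 2 overlapped triple therapy. Against contralateral tissue Flt1 fell by 0.81 on the log2 scale (SE 0.18, adjusted p = 0.00171), to 0.57 times its level there, and against sham by 0.63 (SE 0.18, adjusted p = 0.00878). Both falls were called in every alternative but were smaller under other scalings: with endothelial markers as the scale the first was -0.53 (adjusted p = 0.00234), and with quantile normalisation they were -0.31 and -0.28 (adjusted p = 0.0182 and 0.0296). Under dual therapy Flt1 rose by 0.60 ± 0.18 against untreated tumour (adjusted p = 0.026), which was not called without untreated replicate 1 (0.45, adjusted p = 0.109), untreated replicate 3 (0.54, adjusted p = 0.0828) or dual replicate 2 (0.47, adjusted p = 0.122), or with only these 2 groups in the fit (adjusted p = 0.11). This rise was also not called with no mean-variance trend in the fit (adjusted p = 0.0535). Under triple therapy the difference was 0.46 (95% interval 0.07 to 0.85, adjusted p = 0.0638), but without untreated replicate 2 it passed (0.67, adjusted p = 0.00533). Gene-level scores do not separate the membrane-bound and soluble forms of VEGFR1.

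Kdr was lowest under triple therapy and, on the authors' scaling, did not differ detectably between untreated tumour and tissue without tumour. Kdr (ENSMUSG00000062960, chromosome 5, 75932827 to 75978458, minus strand), the main signalling receptor, had scores of 4817, 4828 and 6614 under triple therapy, 6640, 8450 and 6766 under dual therapy, 8352, 7819 and 7943 in untreated tumour, 7290, 9745 and 7203 in contralateral tissue, and 6687, 8061 and 7780 in sham. All 3 triple therapy libraries were below all 12 others, and the other groups overlapped. Against untreated tumour it fell by 0.58 on the log2 scale under triple therapy (SE 0.14, adjusted p = 0.00447), to a mean of 5419.7 ± 1034 under triple therapy against 8038 ± 279 in untreated tumour, and this call held in all 17 alternatives. Against contralateral tissue it fell by 0.58 (SE 0.14, adjusted p = 0.0212), where 4.97% of genes were called and 0.824% were lower, and against sham by 0.48 (SE 0.14, adjusted p = 0.0385). The call against contralateral tissue was lost without triple replicate 1 or 2 or contralateral replicate 2 (adjusted p = 0.125, 0.13 and 0.125) and with endothelial scaling (-0.44, adjusted p = 0.0694). The call against sham was lost without triple replicate 1 or 2 or sham replicate 2 or 3 (adjusted p = 0.142 to 0.172), with quantile normalisation (-0.39, adjusted p = 0.0592) and with TMM scaling (-0.44, adjusted p = 0.055). With no mean-variance trend in the fit neither of these calls passed (adjusted p = 0.0926 against contralateral tissue and 0.116 against sham). Directly against dual therapy the difference was -0.43 (95% interval -0.74 to -0.13), lower in all 3 libraries, but it did not pass the correction (adjusted p = 0.158). Kdr under dual therapy differed from untreated tumour by -0.15 (interval -0.45 to 0.15, adjusted p = 0.493), and untreated tumour differed from contralateral tissue by 0.01 (interval -0.29 to 0.31, adjusted p = 0.977). With quantile normalisation Kdr was called lower under dual therapy than in untreated tumour (-0.38, adjusted p = 0.0366). The same scaling called it higher in untreated tumour than in sham (0.43, adjusted p = 0.0101).

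The ratio of the Flt1 score to the Kdr score within a library is free of library scaling. It was 9.25, 8.63 and 8.16 under triple therapy, 6.91, 7.25 and 7.02 under dual therapy, 3.28, 5.76 and 3.91 in untreated tumour, 7.52, 7.27 and 7.38 in contralateral tissue, and 7.49, 6.63 and 6.88 in sham. Dual therapy, contralateral tissue and sham shared a narrow range, 6.63 to 7.52. All untreated tumour libraries were below that range and all triple therapy libraries above it. On the authors' scaling, the change in untreated tumour went with a lower Flt1 and the change under triple therapy with a lower Kdr. How the change is split between the genes depends on the scaling. With quantile normalisation, untreated tumour differed from sham by -0.28 in Flt1 and by 0.43 in Kdr on the log2 scale. This ratio was formed with the values of both genes known, so it is given as a description with no test.

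**Figure D3:**
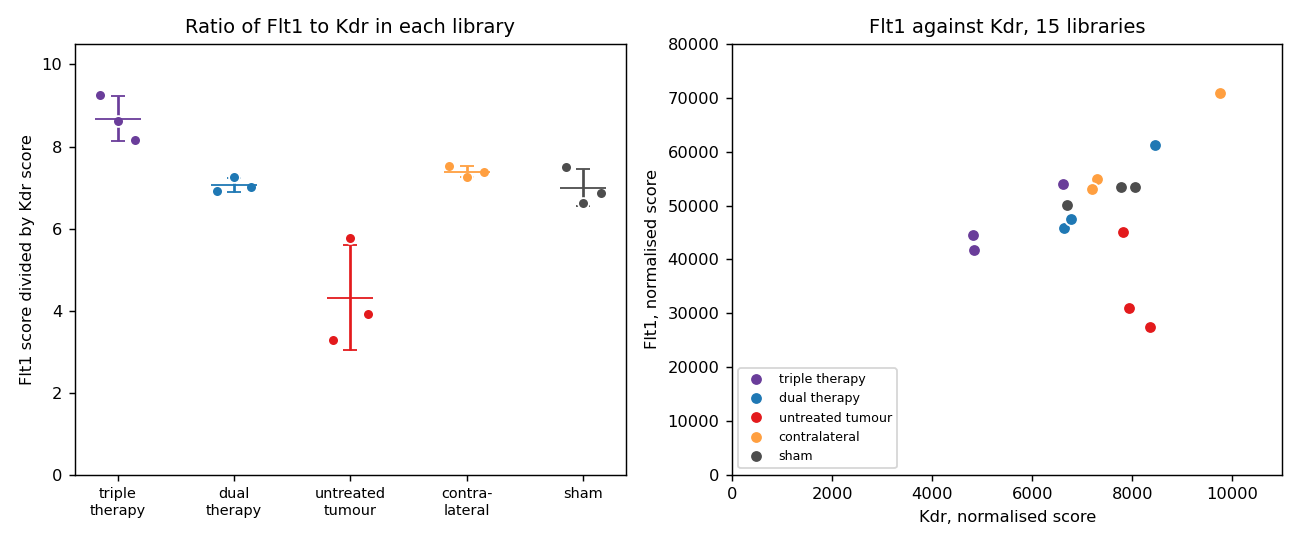
Left, the Flt1 score divided by the Kdr score in each library (points; bar and whiskers are the group mean and SD of 3 libraries). Right, the Flt1 score against the Kdr score in the 15 libraries: untreated tumour has a low Flt1 at a Kdr of 7819 to 8352, triple therapy has a low Kdr, and the ratio of the other 3 groups stays between 6.63 and 7.52.

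Both receptor genes were also set against the mean log2 score of the 14 endothelial markers in the same library. Kdr was still lowest under triple therapy, at 0.21, 0.21 and 0.41 above that mean. Under dual therapy, in contralateral tissue and in sham, Kdr was 0.53 to 0.86 above the mean. In untreated tumour Kdr was 0.74 to 1.25 above the mean. Untreated replicate 2, at 0.74, lay within the range of those groups, and untreated replicates 1 and 3 lay above it. Flt1 was still lowest in untreated tumour, at 2.97, 3.27 and 2.96 above the mean, against 3.32 to 3.70 in the other 12 libraries. On this scale untreated replicates 1 and 3 therefore had the highest Kdr as well as the lowest Flt1. These are log2 differences between genes of unequal length and serve only to compare libraries.

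The third receptor gene and the neuropilin genes moved little. Flt4 (chromosome 11, 49609263 to 49652739, plus strand) averaged 1515 ± 164 under triple therapy, 1483.3 ± 156 under dual therapy, 1517.7 ± 200 in untreated tumour, 1750.7 ± 394 in contralateral tissue and 1368.3 ± 98.5 in sham, and it was called in none of the 10 comparisons. Its libraries overlapped in every one of them. Nrp1 (ENSMUSG00000025810, chromosome 8, 128359284 to 128503363, plus strand) had scores of 3337, 3466 and 3609 under triple therapy, 4082, 4230 and 4730 under dual therapy, 2857, 3583 and 3504 in untreated tumour, 3989, 4082 and 4044 in contralateral tissue, and 3656, 3863 and 3599 in sham. Every dual library was above every untreated, triple and sham library. Under dual therapy Nrp1 rose by 0.40 ± 0.10 against untreated tumour (adjusted p = 0.00803), a call kept without any single library but lost with endothelial scaling (0.20, adjusted p = 0.246) with quantile normalisation (0.22, adjusted p = 0.0958) and with only these 2 groups in the fit (adjusted p = 0.0841). In untreated tumour it fell by 0.29 on the log2 scale against contralateral tissue (SE 0.10, adjusted p = 0.0233), which was -0.01 with endothelial scaling (adjusted p = 0.939) and -0.10 with quantile normalisation (adjusted p = 0.399). That fall was also lost without untreated replicate 1 (-0.19, adjusted p = 0.122) or any 1 of the contralateral libraries (adjusted p = 0.05 to 0.0566). It did not pass with no mean-variance trend (adjusted p = 0.0526) or with only the 2 groups compared in the fit (adjusted p = 0.0886). Triple and dual therapy differed in Nrp1 by -0.32 (95% interval -0.53 to -0.12), lower in all libraries, and this did not pass (adjusted p = 0.133).

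Nrp2 (chromosome 1, 62703285 to 62818695, plus strand), the neuropilin that partners VEGFR3 in lymphatic vessels, was called in no comparison. It averaged 1488.3 ± 114 under triple therapy, 1745.3 ± 215 under dual therapy, 1664.7 ± 147 in untreated tumour, 1573 ± 216 in contralateral tissue and 1377.7 ± 130 in sham. Its difference from sham was 0.27 in untreated tumour (adjusted p = 0.0734) and 0.34 under dual therapy (adjusted p = 0.0615). The first passed once untreated replicate 2 was left out (0.34, adjusted p = 0.0411) and the second without dual replicate 2 (0.44, adjusted p = 0.0275). With quantile normalisation both passed (0.48, adjusted p = 0.00563, and 0.41, adjusted p = 0.0333). In all, the first passed in 4 of 17 alternatives and the second in 3. A microRNA gene, Mir1903, overlaps an exon of Nrp1 with a mean score of 2.1, and the antisense gene Gm29083 lies opposite Nrp2 without sharing exon bases, with a mean of 4.3.

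**Figure D4:**
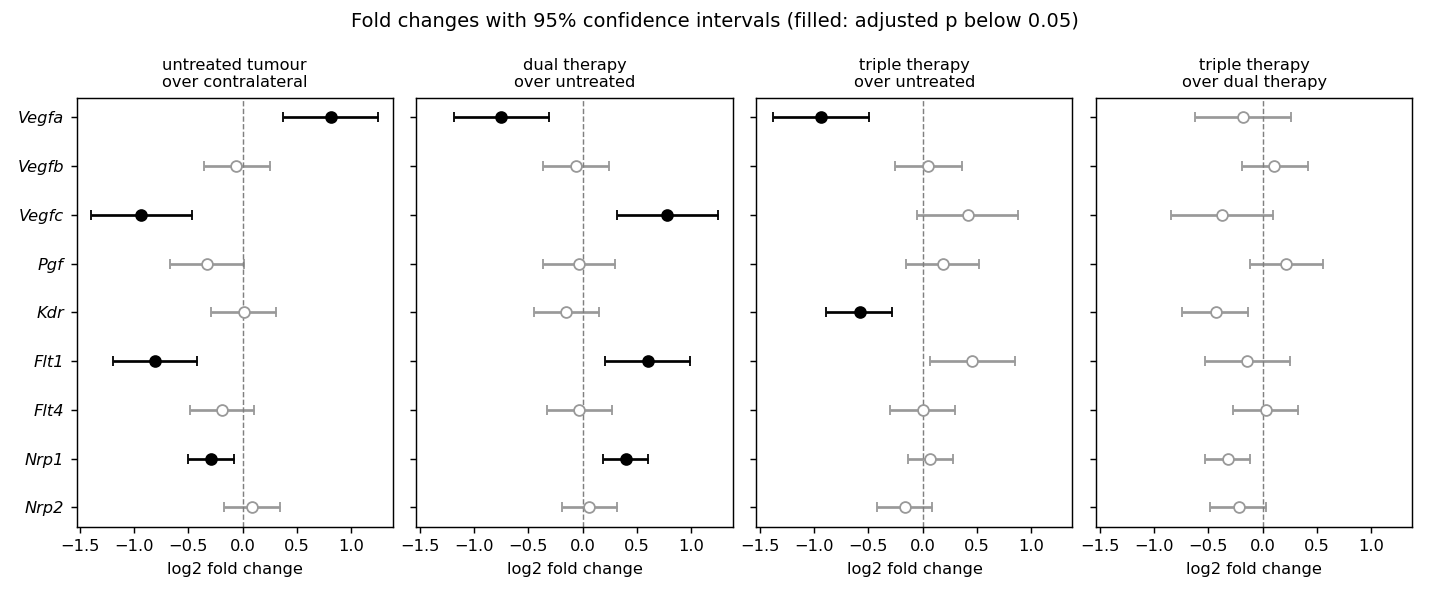
Log2 fold change of each gene with its 95% confidence interval in 4 comparisons; filled points passed an adjusted p of 0.05 in limma, open points did not. Vegfa, Vegfc, Flt1 and Nrp1 lie on opposite sides of 0 in the first panel (untreated tumour over contralateral) and the second (dual therapy over untreated), which share the untreated libraries.

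No member was called between dual therapy and contralateral tissue, where the share of all genes was 12.8% and 5214 had p below 0.05 before adjustment. None was called between dual therapy and sham either, where that share was 18.5% and 5887 had p below 0.05 before adjustment. In the first comparison the differences ran from -0.37 for Pgf to 0.15 for Nrp2, and in the second from -0.36 for Vegfb to 0.34 for Nrp2. The intervals were as wide as -0.62 to 0.32 for Vegfc and -0.39 to 0.50 for Vegfa against contralateral tissue, so differences of that size were not detectable. Between contralateral tissue and sham no member was called, with 2341 genes at p below 0.05 before adjustment.

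Neighbouring groups in the order of a gene's level mostly did not differ. For Vegfa, untreated tumour was followed by dual therapy, sham, contralateral tissue and triple therapy, and only the first step passed the test. For the 8 other genes no step between neighbours passed. The order for Flt1 was contralateral, sham, dual, triple and untreated, and for Vegfc sham, contralateral, dual, triple and untreated.

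Among 20 tested genes listed as responding to VEGF in endothelium, 6 rose and 4 fell in untreated tumour against contralateral tissue (median change 0.22 on the log2 scale, against 0.01 for all genes), where 21.1% of all genes were called higher and 21.4% lower. Against sham 10 rose and 5 fell (median 0.83, against 0.03 for all genes), where 23.3% of all genes were called in either direction alone. Aplnr, the apelin receptor of sprouting vessels, averaged 587.3 ± 113 in untreated tumour against 38.0 ± 25.2 in contralateral tissue (4.12 ± 0.37, adjusted p = 1.37e-07). Its ligand gene Apln averaged 2759.7 ± 1241 in untreated tumour against 437.3 ± 420 in contralateral tissue (3.04 ± 0.47, adjusted p = 4.73e-05), and the chemokine receptor gene Cxcr4 averaged 273.7 ± 28.4 in untreated tumour against 77.7 ± 3.1 in contralateral tissue (1.8 ± 0.26, adjusted p = 2.28e-05). In the same comparison 11 of 12 markers of T and NK cells, which also carry Cxcr4, rose, with sums of 1319 to 1410 in untreated tumour against 79 to 183 in contralateral tissue, and their part in the Cxcr4 result was not tested. The immediate early gene Egr3 fell by 1.59 against contralateral tissue (adjusted p = 0.000113). There 9 of 10 neuron markers fell too, with sums of 3037 to 5425 in untreated tumour against 14359 to 17596 in contralateral tissue. Their part in the falls within this list was not tested.

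Under therapy more genes of this list fell than rose against untreated tumour. Under dual therapy 2 of 20 rose and 8 fell (median -0.62, against -0.01 for all genes), where 12.1% of all genes were called higher and 10.2% lower. Under triple therapy 1 rose and 10 fell (median -0.76, against -0.02), where the shares were 17.2% higher and 15% lower. Aplnr averaged 36.7 ± 4.5 under triple therapy and 63.0 ± 11.5 under dual therapy, and it fell by 3.95 and by 3.20 against untreated tumour (adjusted p = 1.18e-06 and 2.32e-05). Esm1, which encodes the tip cell proteoglycan endocan, averaged 36.7 ± 17.8 under triple therapy, 36.7 ± 8.3 under dual therapy and 211.3 ± 151 in untreated tumour (adjusted p = 0.00147 and 0.00337). The anion channel gene Lrrc8a was the single member that rose under triple therapy (0.78 ± 0.17, adjusted p = 0.0021). Between triple and dual therapy none of the 20 was called.

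**Figure D5:**
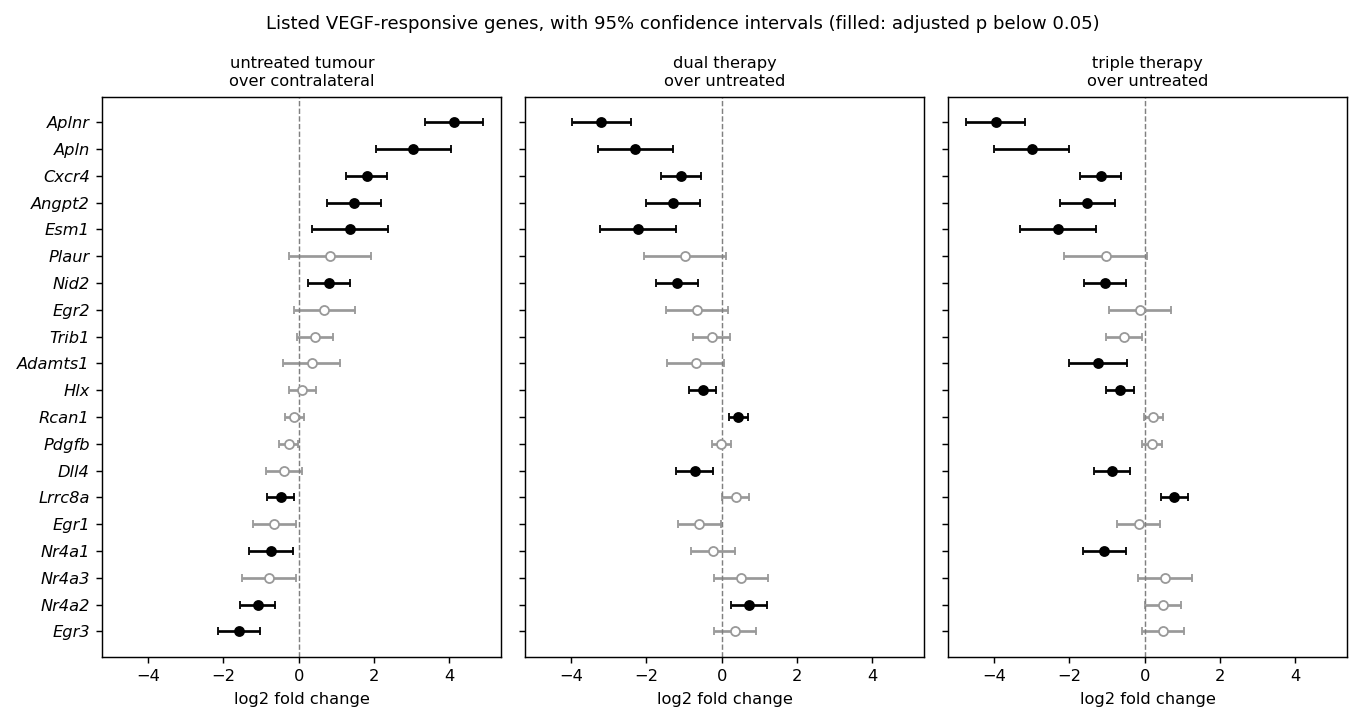
Log2 fold change with 95% confidence interval of 20 genes listed as responding to VEGF, in untreated tumour over contralateral tissue, dual therapy over untreated tumour and triple therapy over untreated tumour; filled points passed an adjusted p of 0.05. Aplnr, Apln, Cxcr4, Angpt2, Esm1 and Nid2 are higher in the first panel and lower in both others, while Egr3, Nr4a1 and Nr4a2 are lower in the first.

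The intracellular pathway of VEGFR2 had more members that fell than rose in untreated tumour on the authors' scaling. That order turned round when endothelial markers set the scale, under which the calls among all genes also moved towards higher. Of 26 tested genes, 4 rose and 10 fell against contralateral tissue (median -0.21), while 3 rose and 0 fell under dual therapy (median 0.10) and 7 rose and 0 fell under triple therapy (median 0.17) against untreated tumour. Of all genes, 21.1% were called higher and 21.4% lower in the first comparison, 12.1% and 10.2% under dual therapy, and 17.2% and 15% under triple therapy, so the 4 and the 3 that rose were not above the shares of all genes. With endothelial scaling, 7 were higher and 3 lower in untreated tumour against contralateral tissue, and with quantile normalisation 5 and 5. Under dual therapy the counts with endothelial scaling were 0 higher and 2 lower, and under triple therapy 3 higher and 0 lower. Of all genes called with endothelial scaling, 71.9%, 26.9% and 40.3% were higher in these comparisons. On the authors' scaling those shares were 49.6%, 54.3% and 53.5%. The protein kinase C gene Prkcb averaged 485.3 ± 13.9 in untreated tumour against 1354.3 ± 202 in contralateral tissue (-1.47 ± 0.15, adjusted p = 7.45e-07). It averaged 1204.7 ± 55.1 under triple therapy and 746.7 ± 69.6 under dual therapy, and triple therapy was higher than dual therapy (0.69, adjusted p = 0.0397). That last call was lost in 9 of 17 alternatives, among them endothelial scaling (adjusted p = 0.152), quantile normalisation (0.0527) and leaving out dual replicate 1 or 2 or any 1 triple therapy library (0.0641 to 0.169). The adaptor gene Sh2d2a, also expressed in T cells, averaged 58.7 ± 19.4 in untreated tumour against 7.3 ± 4.0 in contralateral tissue (2.93 ± 0.57, adjusted p = 0.000447). The summed score of neuron markers, cells that also express Prkcb, was 10165 to 14360 under triple therapy, 6227 to 10988 under dual therapy, 3037 to 5425 in untreated tumour and 14359 to 17596 in contralateral tissue, and its part in the Prkcb result was not tested. The part of the T and NK cell markers, given above for Cxcr4, in the Sh2d2a result was not tested.

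Of 25 partners and regulators of the receptors, 3 rose and 8 fell in untreated tumour against contralateral tissue (median -0.25), 11 of 25 in all, near the 42.5% of all genes called there. Itgb3, the integrin chain that pairs with VEGFR2, averaged 810.3 ± 165 in untreated tumour against 316 ± 118 in contralateral tissue (1.4 ± 0.23, adjusted p = 7.63e-05), and the syndecan gene Sdc2 fell by 1.0 (adjusted p = 3.72e-06). The phosphatase gene Ptprb, which acts on VEGFR2 and Tie2, fell by 0.80 (adjusted p = 0.000949). Under dual therapy 8 rose and 4 fell against untreated tumour (median 0.01), and under triple therapy 9 rose and 4 fell (median 0.05), where 22.3% and 32.2% of all genes were called. With endothelial scaling these counts were 5 and 6 in untreated tumour against contralateral tissue, 0 and 5 under dual therapy, and 6 and 6 under triple therapy. Of all genes called with that scaling, 71.9%, 26.9% and 40.3% were higher in these comparisons. Clec14a, a lectin-like surface protein of endothelium, averaged 1560.3 ± 97.5 under triple therapy, 1881.7 ± 231 under dual therapy and 2908.3 ± 128 in untreated tumour, against which it fell by 0.90 and by 0.63 (adjusted p = 1.26e-05 and 0.000699).

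Of 12 genes of semaphorins and plexins, the other partners of neuropilins, 3 rose and 4 fell in untreated tumour against contralateral tissue (5 and 2 with endothelial scaling), 2 rose and 4 fell under dual therapy, and 4 rose and 3 fell under triple therapy against untreated tumour. The shares of all genes called were 42.5%, 22.3% and 32.2% in these comparisons. Of all genes called with endothelial scaling in untreated tumour against contralateral tissue, 71.9% were higher. Sema3c, a secreted ligand of neuropilins, averaged 7451.3 ± 1506 under triple therapy, 8741.7 ± 2904 under dual therapy, 3690 ± 1229 in untreated tumour and 8014 ± 578 in contralateral tissue. Its change was -1.17 ± 0.21 in untreated tumour against contralateral tissue (adjusted p = 0.000264). Sema3d averaged 201 ± 17.1 under triple therapy, 161 ± 47.9 under dual therapy, 611.3 ± 367 in untreated tumour and 103 ± 16.1 in contralateral tissue (2.41 ± 0.29 in untreated tumour, adjusted p = 3.14e-06). Plxna2, a semaphorin receptor, was higher under triple than under dual therapy, at 3681.3 ± 68.4 under triple therapy against 2320 ± 362 under dual therapy (0.68, adjusted p = 0.0179). That call was lost in 6 of 17 alternatives, among them endothelial scaling (adjusted p = 0.0627) and leaving out triple replicate 1 or 3 or dual replicate 2 (0.0884, 0.0625 and 0.0691).

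Of 19 tested hypoxia genes, a class to which Vegfa belongs, 6 rose and 5 fell in untreated tumour against contralateral tissue (median 0.16), where 21.1% of all genes were called higher and 21.4% lower. Car9, the hypoxia-induced carbonic anhydrase, averaged 54.0 ± 18.2 in untreated tumour against 10 ± 2.6 in contralateral tissue (2.29 ± 0.44, adjusted p = 0.000424). Epas1, the HIF-2 alpha gene abundant in endothelium, averaged 20986 ± 5559 in untreated tumour against 39451.3 ± 3077 in contralateral tissue (-0.95 ± 0.17, adjusted p = 0.000225), and the glucose transporter gene Slc2a1 averaged 18605 ± 4445 in untreated tumour against 36200 ± 2358 in contralateral tissue (-0.98 ± 0.18, adjusted p = 0.000201). Under dual therapy 3 rose and 6 fell, and under triple therapy 5 rose and 5 fell, against untreated tumour, where 22.3% and 32.2% of all genes were called. Ndrg1 fell by 1.22 in untreated tumour against contralateral tissue (adjusted p = 7.07e-06). Against untreated tumour it rose by 1.32 under triple therapy and by 1.0 under dual therapy (adjusted p = 8.6e-06 and 0.000288). Slc2a1 and Epas1 also rose under triple therapy (0.92 and 0.69, adjusted p = 0.000649 and 0.00457), Epas1 not with quantile normalisation (adjusted p = 0.386). Adm, the adrenomedullin gene, fell, averaging 44.0 ± 4.6 under triple therapy against 208.7 ± 109 in untreated tumour (-2.06 ± 0.46, adjusted p = 0.00214).

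Other cell types moved with the groups that Vegfa, Vegfc and Flt1 separate. All 12 proliferation markers rose in untreated tumour against contralateral tissue, with a summed score of 1624 to 2112 under triple therapy, 1154 to 1927 under dual therapy, 6562 to 14669 in untreated tumour, 160 to 365 in contralateral tissue and 242 to 299 in sham. Of 12 pericyte markers 10 fell and of 11 astrocyte markers 7 fell and 1 rose in the same comparison. Of all genes, 21.1% were called higher and 21.4% lower there. Pericyte markers summed to 54711 to 72189 under triple therapy, 49218 to 61840 under dual therapy, 25369 to 29841 in untreated tumour and 55968 to 71951 in contralateral tissue. Monocyte and macrophage markers summed to 11443 to 12338 under triple therapy, 6742 to 11275 under dual therapy, 8613 to 11565 in untreated tumour and 6217 to 6836 in contralateral tissue, and they were not lower under triple therapy than in untreated tumour. Choroid plexus markers summed to 26656 to 79905 under triple therapy, 16530 to 32164 under dual therapy and 15525 to 51835 in untreated tumour. Their sums were 40839 to 84361 in contralateral tissue and 22975 to 25030 in sham. Mitochondrial ribosomal RNA took 9.6 to 12.2% of the score under triple therapy, 15.2 to 17.4% under dual therapy, 21.5 to 33.2% in untreated tumour, 14.5 to 15.8% in contralateral tissue and 11.9 to 12.4% in sham. The part of these shifts in the results for the 9 genes was not tested, beyond the scaling on endothelial markers given beside them.

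Across the 15 libraries, which share group structure and RNA composition, the members most alike were Vegfc and Flt1 (r of log2 scores 0.84), Vegfc and Nrp1 (0.75) and Flt1 and Nrp1 (0.67), whereas Kdr and Flt1 had an r of 0.19. Vegfa ran opposite to Flt1 (-0.62) and Vegfc (-0.60). Among 11612 named genes with a mean score of at least 50, those most like Flt1 were Maoa (0.964), Jam2 (0.958) and Pecam1 (0.954), and those most like Vegfc were Sh3rf1 (0.954), Foxp1 and Kif26a (0.936 each). Those most like Vegfa were Zfp57 (0.905), Apln (0.901) and Brinp3 (0.895). For Kdr they were Mir6236, Zfp942 and St8sia4, with lower values of 0.779, 0.772 and 0.769. The nearest gene was Tnfaip1 for Flt4 (0.893), Actr3b for Vegfb (0.863), Mrps6 for Pgf (0.843), Decr2 for Nrp1 (0.835) and Tmem176a for Nrp2 (0.817).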

How the data were processed

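RNA of brain microvessels was measured in 15 libraries of 5 groups. Per the labels' protocols, a Qiagen micro kit with DNase gave the RNA, and a Clontech stranded kit for total RNA gave the libraries. Per the submitters' processing notes, STAR 2.4.0a, featureCounts 1.4.5-p1 (Subread) and DESeq2 were used on GRCm38 (mm10); whether counting used strand is not stated in those notes. The deposited values are normalised scores that the authors rounded to whole numbers, so they are not counts; their scaling was inferred from the values. The worth of 1 read, estimated from the pattern that rounding leaves among low scores, was 0.656 to 1.861. In 3 libraries, each at 0.996, this pattern was not visible, and the estimate is weak.

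Scores were set to log2(score + 1), so fold changes of low genes are understated. Genes at 10 or more in at least 3 libraries were tested (19668 kept, 7506 left out). All libraries entered 1 limma 3.58.1 fit (R 4.3.3) with a mean-variance trend, 10 residual and 8.26 prior degrees of freedom. In 10 pairwise comparisons and 1 F-test, p-values were adjusted over all tested genes (Benjamini-Hochberg) and called below 0.05. The script was tested on simulated data. Lengths came from GENCODE M21, which held 99.8% of identifiers, and promoters from RefSeq (GRCm38.p6) for all 9 members; where a gene had 2 windows, the one nearest its 5′ end was used. The members and gene lists were chosen with earlier results of these data known. Named pathway genes were drawn from the 4 with the smallest adjusted p per list and comparison, or, with no call, the 2 of highest mean. Genes most like a member were drawn from the 3 with the highest correlation. Not every gene that these rules select is named. Alternatives were other scalings, pseudocounts, filters and models, a replicate block, and leaving out libraries; leaving out both libraries that stood apart was added after seeing the data.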

Additional observations from a re-analysis of the deposited data

How the results depend on the processing

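In 1530 refits of single members no called direction reversed; of 16 calls, 8 held in every alternative. Counts of called members (main count first) changed as follows. Against 4 for dual therapy over untreated tumour, 2 were called with no mean-variance trend and 1 with only the 2 groups compared. Against 2 for triple therapy over untreated, 4 were called without both libraries that stood apart. Against 3 for untreated over sham, 6 were called with quantile normalisation and 5 with library quality weights. Against 1 for triple therapy over contralateral, 0 were called with no trend or endothelial scaling, and 2 with quality weights or only the 2 groups. Against 2 for triple therapy over sham, 0 were called with no trend, and 1 with endothelial scaling, quantile normalisation or TMM. Against 0 for dual therapy over sham, 2 were called with quantile normalisation or without both libraries, and against 0 for contralateral over sham, 1 with quality weights or without both libraries. With no trend 3 of 9 members differed among groups, against 6. Leaving out each library in turn gave 1 to 4 (dual over untreated), 2 to 4 (triple over untreated), 3 to 4 (untreated over contralateral or sham), 0 to 1 (triple over contralateral, triple over sham, dual over contralateral), 0 to 2 (dual over sham), 0 to 0 (triple over dual, contralateral over sham) and 4 to 6 (F-test). The labels state no pairing, and libraries of the same replicate number showed little correlation of deviations (-0.13 to 0.103 per pair). With 3 pools per group, this cannot show whether pools of different groups came from the same mice. With the replicate block, Vegfc in triple therapy over sham (-0.64, adjusted p = 0.0465) and Flt1 in triple therapy over untreated (0.46, adjusted p = 0.05 after rounding) were called. Over all genes, called counts moved by over 1.5 times: 0 to 631 for contralateral over sham (main 85), 0 to 327 for triple over dual (main 171), 2205 to 4649 for dual over untreated (main 4377), 1587 to 2747 for dual over contralateral (main 2518), 595 to 1850 for triple over contralateral (main 978) and 1103 to 3224 for triple over sham (main 1913). Endothelial scaling shifted the median of all genes by up to 0.28; 71.9% of calls in untreated over contralateral were then higher, against 49.6%, and 26.9% in dual over untreated, against 54.3%. The cause of these changes was not tested. With 3 pools per group, the printed intervals give the precision of each difference.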

Other observations

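In contralateral tissue against sham, 4 of 20 genes listed as responding to VEGF rose and none fell by the limma test (0.432% of all genes were called), while no ligand, receptor or neuropilin gene was called. With endothelial scaling 1 of the 20 rose and none fell, and 45.3% of all genes called with that scaling were higher. Cxcr4 averaged 77.7 ± 3.1 in contralateral tissue and 28.7 ± 5.7 in sham (log2 fold change 1.42, adjusted p = 0.0204), and the transcription factor gene Hlx averaged 232 ± 36.0 in contralateral tissue and 107.7 ± 5.1 in sham (1.09, adjusted p = 0.0081; SD, n = 3 each). The Notch ligand gene Dll4 averaged 1492.3 ± 700 in contralateral tissue and 612 ± 65.5 in sham (1.19, adjusted p = 0.0273), and Nr4a1 averaged 771.3 ± 353 in contralateral tissue and 305 ± 98.1 in sham (1.30, adjusted p = 0.0389). Clec14a was higher there too, at 2975.3 ± 331 in contralateral tissue against 1830.3 ± 169 in sham (0.70, adjusted p = 0.00776). The alternatives that ended a call were 9 of 17 for Cxcr4 (adjusted p up to 0.148), 4 for Hlx (up to 0.08), 6 for Dll4 (up to 0.174), 9 for Nr4a1 (up to 0.208) and 4 for Clec14a (up to 0.118). Endothelial scaling ended the Clec14a call (log2 fold change 0.58). Among single libraries, leaving out contralateral replicate 1 ended the calls of Clec14a and Hlx. The same held for Dll4 with contralateral replicate 2 or any 1 sham library, for Cxcr4 with any 1 contralateral library or sham replicate 1 or 2, and for Nr4a1 with any 1 of the 6.

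Against sham, Cxcr4 was also higher under triple therapy (120.7 ± 12.3, against 28.7 ± 5.7 in sham, log2 fold change 2.05, adjusted p = 3.46e-05) and under dual therapy (137 ± 53.8, 2.14, adjusted p = 1.01e-05). T and NK cell markers, whose cells also carry Cxcr4, summed to 560 to 1133 under triple therapy, 835 to 1195 under dual therapy and 59 to 118 in sham, and their part in this result was not tested. Adamts3, which encodes a protease that activates VEGF-C, averaged 54.3 ± 2.1 under triple therapy, 35.3 ± 12.1 under dual therapy, 28.3 ± 11 in untreated tumour and 119.7 ± 17.0 in sham, lower than sham in all 3 comparisons (adjusted p = 0.0414, 0.00082 and 4.84e-05). The call under triple therapy was lost in 11 of 17 alternatives, among them endothelial scaling (adjusted p = 0.111), quantile normalisation (0.0507), TMM (0.0533), the replicate block (0.0543) and leaving out any 1 of the 6 libraries (0.0658 to 0.151).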
